A study of Mus musculus with 6 samples.

Results

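The genes described are 8 targets of the transcription factor NRF2 (Hmox1, Nqo1, Gclm, Gclc, Srxn1, Txnrd1, Slc7a11 and Osgin1) and 2 metallothioneins (Mt1 and Mt2), followed through 3 experiments in which mouse mesenchymal stem cells were exposed to terahertz radiation. Members were found by exact gene symbol in the platform annotation. The rule uses no measured value, but the set was put together with earlier results of these data known. All 10 genes were measured, by 19 of the 34945 probe sets that name a single gene, and the whole array covers 18193 such genes. A probe set is a group of short probes on the Affymetrix array that reports 1 transcript or, for some probe sets, several related ones. Each gene is represented below by its probe set with the highest mean level, and other probe sets are given beside it.

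NRF2, encoded by Nfe2l2, is a transcription factor that is held in check by KEAP1, an adaptor that sends it for degradation. Oxidants and reactive chemicals modify KEAP1, and NRF2 then pairs with small MAF proteins at antioxidant response elements and raises genes for glutathione synthesis, thioredoxin recycling, quinone reduction and heme breakdown. Metallothioneins are small cysteine-rich proteins that bind zinc and copper. Their genes are induced by metals through the factor MTF1 and also by glucocorticoids.

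The irradiated cultures, 3 in number, received 2 h of pulsed broadband terahertz radiation (35 fs pulses, centred near 10 THz, 1 kHz repetition, average power density 1 mW/cm2). The 3 control cultures received none and stood beside the irradiated ones, so each of the 3 experiments gave 1 irradiated and 1 control array, and both cultures were kept at 26 to 27 °C. Cells of both arms came from a commercial source and had the same adipogenic mix, namely dexamethasone, a glucocorticoid (1 µM), rosiglitazone (1 µM), IBMX, which blocks phosphodiesterases (100 µM), and insulin (5 µg/ml), added again 48 h before exposure. The question was whether exposure alters transcript levels relative to the neighbouring culture. RNA was taken straight after the exposure, and no later time is described. Levels are on the log2 scale of the deposited values, on which a difference of 1 is a doubling, and a probe set's level is compared only between arrays.

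Of 9 measured mesenchymal markers, 8 lay above 4.84, the level of the median probe set, and Thy1 lay below it at 3.84. Of 7 fat-cell markers, 6 lay above it (Fabp4 highest, at a mean of 14.4) and Lep below it at 2.81. All 13 macrophage and leukocyte markers (means from 7.56 to 14.2) lay above it, while 6 of 7 endothelial and 3 of 5 each of skeletal muscle, epithelial and neuronal markers lay below the median probe set. In such mixed cultures a lower level can mean fewer cells of a type or less RNA per cell, and these cannot be told apart. Spiked-in hybridization controls averaged 11.4 on the array of control culture 3 and from 10.82 to 10.99 on the other 5 arrays, so values without that array or its experiment are given beside the results it touches. For Gapdh, the 3′ probe set minus the 5′ one, which reads RNA quality, came to -0.01 and -0.03 in the irradiated and control cultures of experiment 3, against -0.03 and -0.05 in experiment 2 and 0.23 and 0.19 in experiment 1. The same measure for Actb was also highest in experiment 1, at 0.76 and 0.75 in the irradiated and control cultures. It was 0.62 and 0.72 in experiment 3 and 0.61 and 0.62 in experiment 2, so control culture 3 lay nearer to experiment 1.

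Irradiation was not followed by a detectable change in any of the 10 genes. The limma test, with the experiment as a block and Benjamini-Hochberg adjustment over 45037 probe sets, called 0 of the 10 genes, beside 0 (0.0%) of all probe sets, and unadjusted p was under 0.05 for 0 of the 10, where 4.97% of all probe sets had such a p. No gene's irradiated and control groups stood apart without overlap, which 6.73% of all probe sets did in one direction or the other. The 95% intervals stayed within 2-fold for all 10 genes and within 1.5-fold for 8, the exceptions being Srxn1 and Osgin1. With 3 pairs, the smallest two-sided p of an exact sign-flip permutation is 0.25. All 13 macrophage and leukocyte markers had positive differences between irradiated and control cultures, with a median of 0.08 and 0 called, and 6 of 7 fat-cell markers had negative ones, with a median of -0.13 and 0 called. Their part in the values of the 10 genes was not tested.

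**Figure D1:**
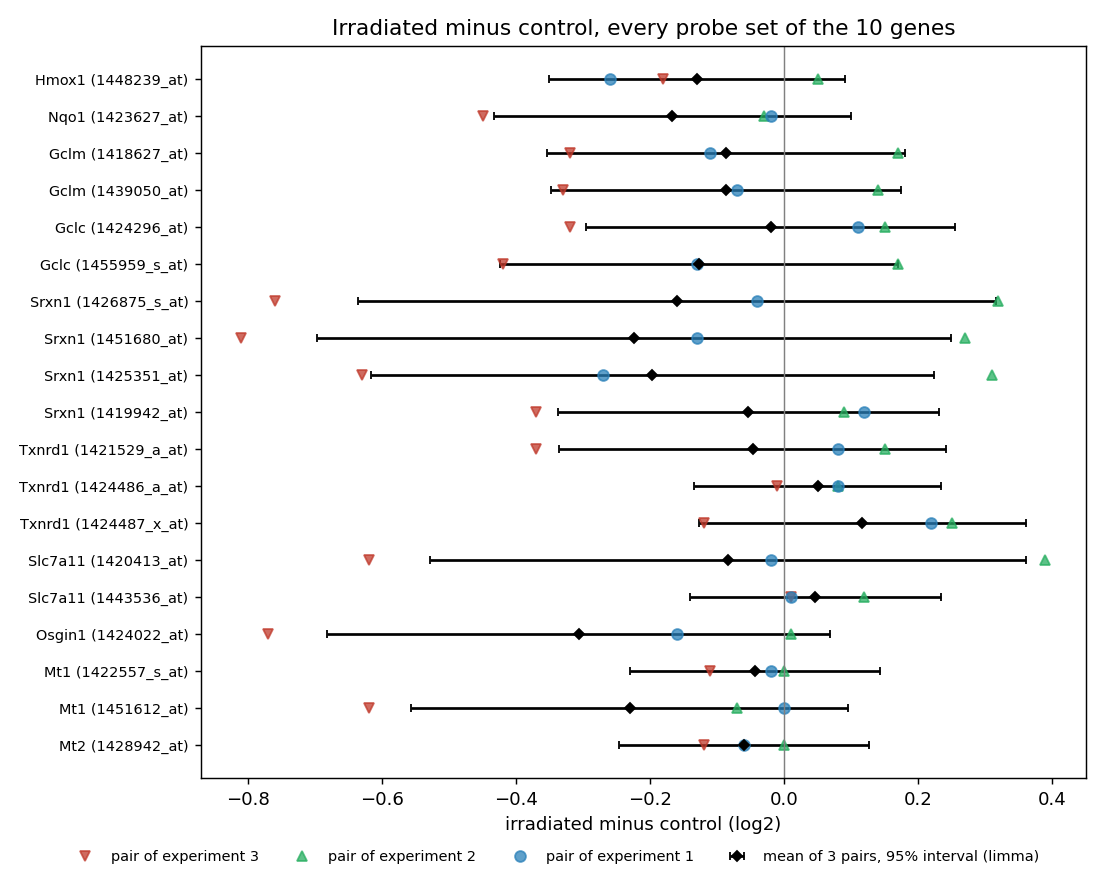
Irradiated minus control difference (log2) for each of the 19 probe sets of the 10 genes, labelled with gene and probe set. Black diamonds and bars are the mean of 3 pairs and its 95% interval by limma, and coloured symbols are the pairs of experiments 3, 2 and 1. Every interval crosses 0, and the pair of experiment 3 lies below 0 for 18 of the 19 probe sets, the exception being the dimmer one of Slc7a11 at 0.01.

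Osgin1, which encodes an oxidative stress-induced growth inhibitor, had the smallest p of the 10. Its levels were 6.22, 7.69 and 8.24 in irradiated cultures 1, 2 and 3, against 6.38, 7.68 and 9.01 in control cultures 1, 2 and 3, a difference of -0.31 ± 0.15 (SE, limma adjusted p = 0.929). The groups overlapped from 6.38 to 8.24, with control culture 3 above every irradiated culture, and both groups were lowest in experiment 1. Hmox1, the inducible heme oxygenase that breaks heme down to biliverdin, iron and carbon monoxide, averaged 12.45 ± 0.70 in irradiated and 12.58 ± 0.61 in control cultures (SD, n = 3 each). The Hmox1 difference was -0.13 ± 0.09 (SE, limma adjusted p = 0.931).

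By the representative probe sets, all 10 differences were negative, with a median of -0.085, where 48.1% of all genes had a negative one. Of all 19 probe sets, 3 had positive differences, namely the dimmer ones of Txnrd1 (0.05 and 0.12) and of Slc7a11 (0.05). The pair differences of experiment 3 were the most negative of the 3 experiments by their median. They ran from -0.77 (Osgin1) to -0.11 (Mt1) with a median of -0.345, and 7 of them were at or below -0.3, as were 8.64% of all genes in that pair, and 48.4% of all genes lay below 0. In experiment 2, 7 of the 10 pair differences were positive, 2 were 0 and 1 was negative, with a median of 0.10, where 48.7% of all genes were negative. In experiment 1, 8 were negative and 2 positive, with a median of -0.03, where 46.9% of all genes were negative.

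The cystine transporter gene Slc7a11 shows the contrast between pairs, with differences of 0.39 in experiment 2, -0.62 in experiment 3 and -0.02 in experiment 1. With 1 pair per experiment, differences between pairs have no test. Control culture 3 was the highest of the 6 arrays for 9 of the 10 genes, which it was for 22.9% of all genes. It is the same array that had the highest spike-in signal, and the part of that signal in these values was not tested. Without experiment 3, the difference changed sign for 5 of the 10 genes, and it lay between -0.11 (Hmox1) and 0.19 (Slc7a11) over the 10.

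For most of the 10 genes, experiments 3 and 2 lay further from experiment 1 than irradiated cultures lay from their controls. In experiment 3, 6 of the 10 genes rose relative to experiment 1 and 0 fell (limma adjusted p under 0.05), beside 2.07% of all genes that rose and 1.07% that fell. In experiment 2, 3 of the 10 rose relative to experiment 1 and 0 fell, beside 0.616% and 0.033% of all genes. Between experiments 3 and 2, 0 of the 10 were called, beside 0.044% of all genes, and 1 (Osgin1) had an unadjusted p under 0.05, which is near the 9.15% of all genes that did. For each of the 10 genes, and for all 19 probe sets, the 4 arrays of experiments 2 and 3 lay above both arrays of experiment 1, a pattern found in 11.2% of all genes and 11.0% of all probe sets, and for 6 of the 10 the gap was 0.5 or more (1.01% of all genes).

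Both of these contrasts use the same 2 arrays of experiment 1, so they are not independent of each other. Their p-values compare these particular experiments with the spread between 2 cultures of one experiment. Cell batch, day and RNA handling are not given by the labels and cannot be told apart. Leaving out any 1 array or 1 experiment leaves 1 residual degree of freedom, and 0 members and 0 probe sets were then called in any contrast, although all differences of the 10 genes from experiment 1 kept their sign. Without control culture 3, experiment 3 minus experiment 1 was smaller for all 10 genes. It was then 1.98 for Osgin1, 1.51 for Srxn1, 1.18 for Hmox1, 0.93 for Gclc, 0.63 for Txnrd1 and 0.56 for Gclm. Among the genes that had not passed, it was 0.46 for Slc7a11, 0.16 for Nqo1, 0.055 for Mt2 and 0.035 for Mt1.

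**Figure D2:**
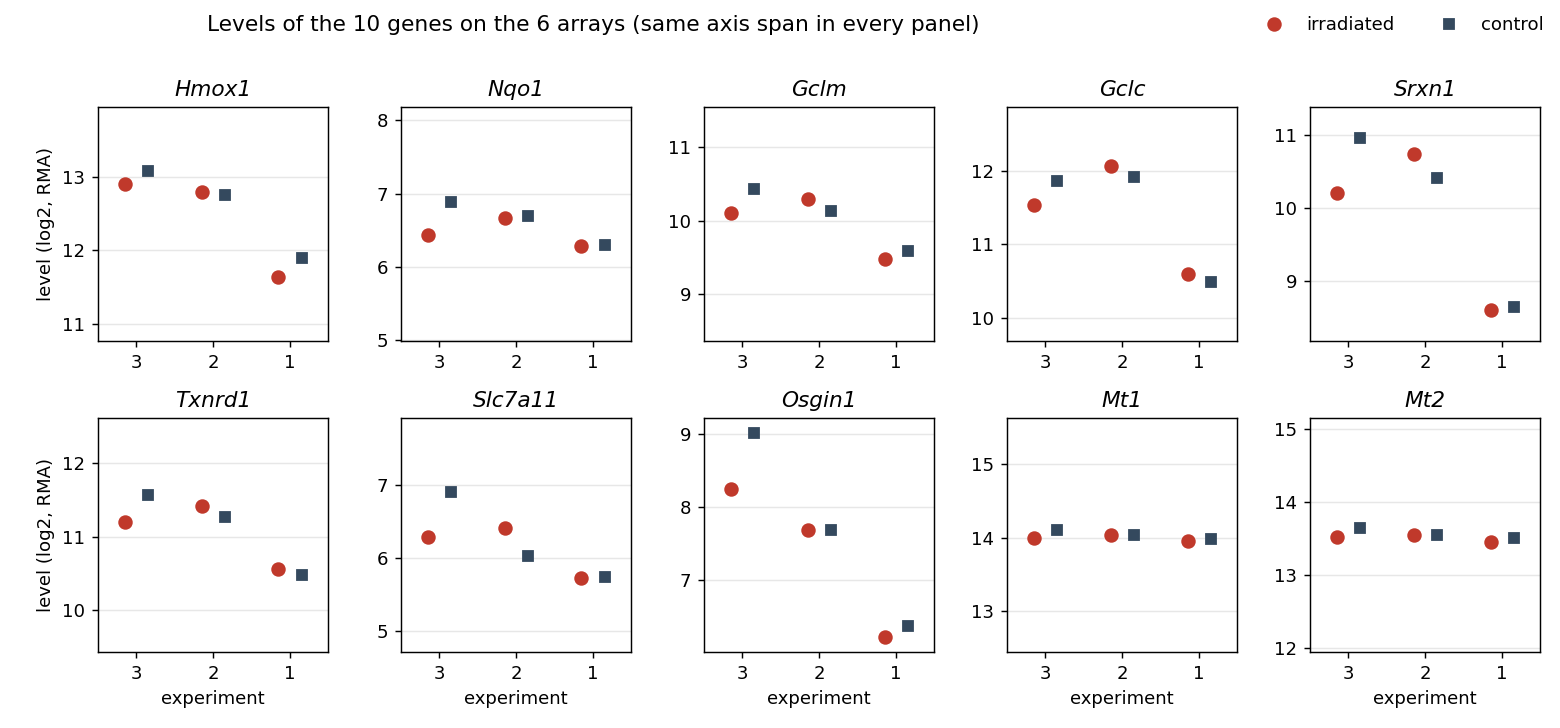
Level (log2, RMA) of each gene's representative probe set on the 6 arrays, with experiments 3, 2 and 1 from left to right and, within each, the irradiated culture (circle) left of the control culture (square). Every panel spans the same number of log2 units. Experiment 1 lies lowest in each panel, by 0.85 or more for Hmox1, Gclc, Srxn1 and Osgin1 and by 0.02 and 0.01 for Mt1 and Mt2.

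Srxn1 encodes sulfiredoxin, which repairs peroxiredoxins that have been over-oxidized at their active cysteine. It stood at 10.20 and 10.96 in the irradiated and control cultures of experiment 3, against 10.73 and 10.41 in experiment 2 and 8.60 and 8.64 in experiment 1. The 4 arrays of experiments 3 and 2 do not overlap the 2 of experiment 1, and irradiated cultures were lower than their controls in experiments 3 and 1 and higher in experiment 2. The rise was 1.96 ± 0.24 (SE), or 3.89-fold, in experiment 3 over experiment 1 (limma adjusted p = 0.0142), and 1.95 or 3.86-fold in experiment 2 over experiment 1 (limma adjusted p = 0.0391). The other 3 probe sets of Srxn1 gave 2.03, 1.95 and 1.17 for experiment 3 over experiment 1, all past the test.

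Osgin1 had the largest difference of the 10 in experiment 3 over experiment 1. It stood at 8.24 and 9.01 in the irradiated and control cultures of experiment 3, against 7.69 and 7.68 in experiment 2 and 6.22 and 6.38 in experiment 1. The rise in experiment 3 over experiment 1 was 2.33 ± 0.19 (SE), or 5.01-fold (limma adjusted p = 0.00411). Experiment 2 minus experiment 1 was 1.39, with an adjusted p of 0.0543 by limma (0.0497 with quantile normalization and 0.0482 with median centring), and experiment 3 minus experiment 2 was 0.94 ± 0.19 (limma adjusted p = 0.267).

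Promoter windows of RefSeq (build GRCm38.p6, from 250 bases before to 50 after the annotated start) were found for 8 of the 10 genes, in 10 windows. Hmox1 and Gclc are named only. Those of Srxn1 (chr2:152105274-152105573, plus strand) and Osgin1 (chr8:119436897-119437196, plus strand) are printed because these genes differed most between experiments. Capitals mark matches, on either strand, to TGACNNNGC (core of the antioxidant response element), TGANTCA (AP-1 site), TGATGNAA (amino acid response element, bound by ATF4), and TGCACNC or TGCGCNC (core of the metal response element, bound by MTF1).
Srxn1: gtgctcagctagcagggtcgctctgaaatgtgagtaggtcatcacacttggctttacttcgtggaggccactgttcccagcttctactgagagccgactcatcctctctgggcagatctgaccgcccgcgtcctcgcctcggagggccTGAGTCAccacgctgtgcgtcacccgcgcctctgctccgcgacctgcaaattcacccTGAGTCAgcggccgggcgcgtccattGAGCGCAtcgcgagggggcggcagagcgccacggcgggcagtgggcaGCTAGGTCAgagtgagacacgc
Osgin1: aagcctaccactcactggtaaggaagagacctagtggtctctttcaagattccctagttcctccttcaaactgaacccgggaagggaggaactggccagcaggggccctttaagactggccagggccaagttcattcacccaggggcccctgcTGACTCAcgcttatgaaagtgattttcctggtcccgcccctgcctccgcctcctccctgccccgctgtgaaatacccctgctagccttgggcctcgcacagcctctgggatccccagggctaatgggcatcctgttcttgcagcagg
The Srxn1 window holds 2 AP-1 matches, 1 metal response core and, after the start, 1 match to TGACNNNGC. The Osgin1 window holds 1 AP-1 match and no match to TGACNNNGC, the only form of the antioxidant core searched. The Srxn1 AP-1 match at position -45, and the Osgin1 one on the other strand, run on as TGAGTCAGC. That run differs from TGACNNNGC in 1 letter and was not counted. A match is a run of letters and not a measured binding site.

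Over the 10 windows, the antioxidant core in the form TGACNNNGC was found in 4 (Gclm, Srxn1, 1 of 3 starts of Txnrd1, and Mt2). It was in 12.4% of 32851 windows of the same length in the table. AP-1 matches were in 3 windows, beside 7.81% of all. A palindromic core of the heat shock element, GAANNTTC, was in 0 of the 10 and in 7.86% of all. The AP-1 letters TGACTCA can overlap the antioxidant core, as they do in Mt2, where both start at the same base.

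**Figure D3:**
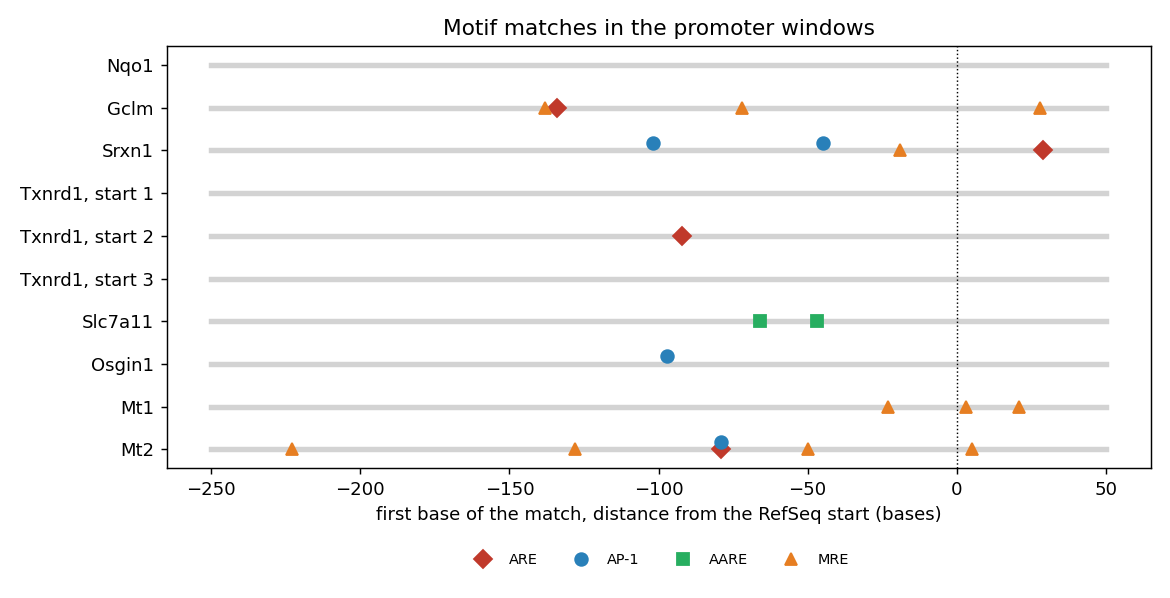
Position of motif matches in the 10 promoter windows, as the distance in bases of the first base of the match from the RefSeq start (dotted line). Grey bars are the windows, diamonds the antioxidant core (ARE), circles AP-1, squares the amino acid response element (AARE) and triangles the metal response core (MRE). The windows of Nqo1 and of 2 Txnrd1 starts hold no match.

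Glutamate-cysteine ligase carries out a step of glutathione synthesis, the joining of cysteine to glutamate. Its catalytic subunit is encoded by Gclc and its modifier subunit by Gclm. Gclc stood at 11.54 and 11.86 in the irradiated and control cultures of experiment 3, against 12.07 and 11.92 in experiment 2 and 10.60 and 10.49 in experiment 1. The highest arrays were those of experiment 2, and experiment 1 stood apart below. Gclc rose by 1.16 ± 0.14 (SE) in experiment 3 over experiment 1 (limma adjusted p = 0.0136) and by 1.45, or 2.73-fold, in experiment 2 over experiment 1 (limma adjusted p = 0.0191). Its other probe set gave 1.13 and 1.29, both past the test.

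Gclm stood at 10.11 and 10.43 in the irradiated and control cultures of experiment 3, against 10.30 and 10.13 in experiment 2 and 9.48 and 9.59 in experiment 1. By this probe set, the order of the experiments matched that of the catalytic subunit only in that experiment 1 was lowest. Its experiments 3 and 2 differed by just 0.055 ± 0.13 (SE). The Gclm difference was 0.74 ± 0.13 (SE), or 1.66-fold, in experiment 3 over experiment 1 (limma adjusted p = 0.0487), and this call was lost with a robust prior (adjusted p = 0.0527). In experiment 2 over experiment 1 it was 0.68 and did not pass (limma adjusted p = 0.160). The second Gclm probe set gave 0.58 for experiment 3 over experiment 1 and did not pass (limma adjusted p = 0.0826). Its experiment means were 8.795, 8.89 and 8.215 in experiments 3, 2 and 1, the same order as Gclc.

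Slc7a11 encodes the subunit of the cystine-glutamate exchanger that carries cystine into the cell, and it is a target of both NRF2 and ATF4. It stood at 6.28 and 6.90 in the irradiated and control cultures of experiment 3, against 6.41 and 6.02 in experiment 2 and 5.72 and 5.74 in experiment 1. The spread between the 2 cultures of experiment 3 exceeded the distance from the lower one to experiment 1. The difference of 0.86 ± 0.22 (SE) in experiment 3 over experiment 1 did not pass (limma adjusted p = 0.113), nor did 0.49 in experiment 2 over experiment 1. With 1 array left out, the first ran from 0.46 (without control culture 3) to 1.26 (without irradiated culture 3), and the second from 0.13 (without irradiated culture 2) to 0.84 (without control culture 2). A second, dimmer probe set (mean 4.27, below the median probe set) gave 0.52 ± 0.09 (SE) for experiment 3 over experiment 1 and passed narrowly (limma adjusted p = 0.0478).

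The window of Slc7a11 (chr3:50443564-50443863, minus strand, written 5′ to 3′ along the gene) is printed because it is the only one of the 10 with amino acid response matches, which 3.97% of all windows hold. Its 2 matches, in capitals, begin at positions -66 and -47 relative to the start, on opposite strands. No match to TGACNNNGC, the form of the antioxidant core searched, lies within the window.
Slc7a11: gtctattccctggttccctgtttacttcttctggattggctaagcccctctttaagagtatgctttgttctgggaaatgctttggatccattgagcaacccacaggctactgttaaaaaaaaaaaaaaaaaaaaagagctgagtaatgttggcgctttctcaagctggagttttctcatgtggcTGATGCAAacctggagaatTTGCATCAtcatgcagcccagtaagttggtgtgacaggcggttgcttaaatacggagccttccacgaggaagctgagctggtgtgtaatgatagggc

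Among the genes of recycling and reduction, Txnrd1 rose and Nqo1 did not pass. Txnrd1, the cytosolic thioredoxin reductase, stood at 11.20 and 11.57 in the irradiated and control cultures of experiment 3, against 11.42 and 11.27 in experiment 2 and 10.55 and 10.47 in experiment 1. Its rise in experiment 3 over experiment 1 was 0.88 ± 0.15 (SE), or 1.83-fold (limma adjusted p = 0.0371), and its difference in experiment 2 over experiment 1 was 0.84 (limma adjusted p = 0.117). Of its other probe sets, one at a mean of 4.92 gave 0.57 for experiment 3 over experiment 1 and passed, and one at 3.41 gave 0.49 and did not. Nqo1, a quinone reductase, stood at 6.44 and 6.89 in the irradiated and control cultures of experiment 3, against 6.67 and 6.70 in experiment 2 and 6.28 and 6.30 in experiment 1. Its difference of 0.38 ± 0.13 (SE) in experiment 3 over experiment 1 did not pass (limma adjusted p = 0.209), and it ran from 0.16 (without control culture 3) to 0.59 (without irradiated culture 3) with 1 array left out.

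Hmox1 stood at 12.90 and 13.08 in the irradiated and control cultures of experiment 3, against 12.80 and 12.75 in experiment 2 and 11.64 and 11.90 in experiment 1. Experiments 3 and 2 lay close together, and both stood apart above experiment 1. Hmox1 rose by 1.22 ± 0.11 (SE), or 2.33-fold, in experiment 3 over experiment 1 (limma adjusted p = 0.00629) and by 1.01, or 2.01-fold, in experiment 2 over experiment 1 (limma adjusted p = 0.0281). Heme oxygenase is abundant in macrophages, and the 13 macrophage and leukocyte markers had mean levels of 11.26 and 11.07 in the irradiated and control cultures of experiment 3, against 11.27 and 11.21 in experiment 2 and 11.35 and 11.29 in experiment 1. In experiment 3 over experiment 1, 10 of these 13 markers had negative differences and 0 passed, with a median of -0.18. The part of macrophages, by their number or their state, in the Hmox1 differences was not tested.

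**Figure D4:**
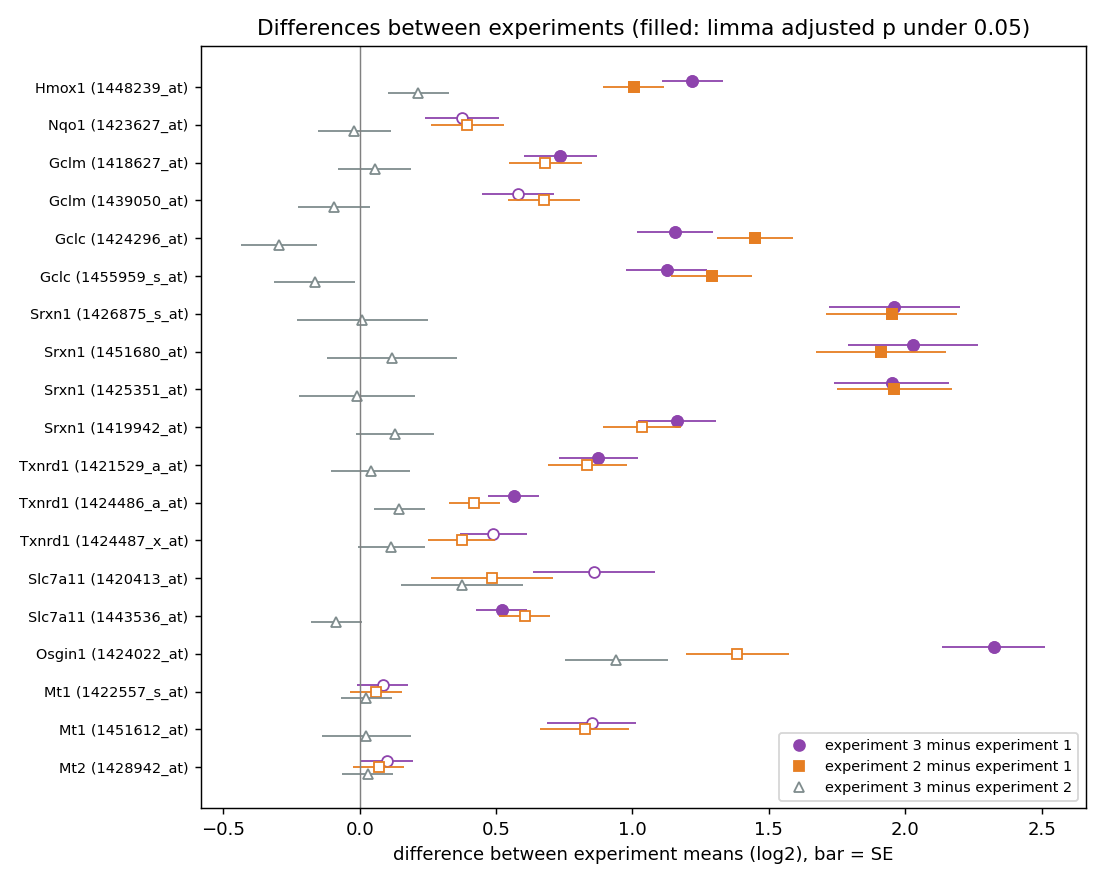
Differences between experiment means (log2, bars are SE of the limma fit) for each of the 19 probe sets, with experiment 3 minus experiment 1 as circles, experiment 2 minus experiment 1 as squares and experiment 3 minus experiment 2 as triangles. Filled symbols have an adjusted p under 0.05. Of the 19 probe sets, 12 are filled for experiment 3 minus 1 (1.87% of all probe sets rose), 6 for experiment 2 minus 1 (0.473%) and 0 for experiment 3 minus 2.

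The Mt1 probe sets gave differences of unlike size between experiments, though none passed the test, and Mt2 was measured by 1 probe set. Mt1 by its brighter probe set stood at 14.00 and 14.11 in the irradiated and control cultures of experiment 3, against 14.03 and 14.03 in experiment 2 and 13.96 and 13.98 in experiment 1, a range of 0.15. Mt2 stood at 13.52 and 13.64 in experiment 3, against 13.55 and 13.55 in experiment 2 and 13.45 and 13.51 in experiment 1, a range of 0.19. The brightest value in the table is 14.57, against means of 14.02 for Mt1 and 13.54 for Mt2. Arrays can compress differences near the top of the scale, and whether this happened here was not tested.

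The Mt1 and Mt2 differences in experiment 3 over experiment 1 were 0.09 ± 0.09 and 0.10 ± 0.09 (SE), and neither passed (limma adjusted p = 0.676 and 0.616). A dimmer Mt1 probe set stood at 8.78 and 9.40 in the irradiated and control cultures of experiment 3, against 9.03 and 9.10 in experiment 2 and 8.24 and 8.24 in experiment 1. It gave 0.85 ± 0.16 (SE), or 1.80-fold, for experiment 3 over experiment 1 and narrowly missed the test (limma adjusted p = 0.056), and 0.83 for experiment 2 over experiment 1 (limma adjusted p = 0.161). The suffix of the brighter Mt1 probe set marks probes shared by more than one transcript, and the metallothionein genes are close copies. The split between Mt1 and Mt2 is therefore uncertain. The brightest probe set of Srxn1 and the dimmer one of Gclc carry the same suffix.

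The windows of Mt2 (chr8:94172368-94172667) and Mt1 (chr8:94178839-94179138) lie on the plus strand of the same chromosome with 6171 bases between them, Mt2 first. They are printed because these genes are neighbours and both windows hold several metal response cores, 4 in Mt2 and 3 in Mt1. The Gclm window also holds 3 and the Srxn1 window 1. A metal response core is in 25.7% of all windows, the most common of the motifs searched.
Mt2: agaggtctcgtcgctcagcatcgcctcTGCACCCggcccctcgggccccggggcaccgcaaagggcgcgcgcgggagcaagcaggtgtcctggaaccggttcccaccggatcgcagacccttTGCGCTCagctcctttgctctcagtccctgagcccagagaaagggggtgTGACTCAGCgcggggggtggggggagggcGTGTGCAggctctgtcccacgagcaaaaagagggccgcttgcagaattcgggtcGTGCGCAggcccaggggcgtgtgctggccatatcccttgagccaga
Mt1: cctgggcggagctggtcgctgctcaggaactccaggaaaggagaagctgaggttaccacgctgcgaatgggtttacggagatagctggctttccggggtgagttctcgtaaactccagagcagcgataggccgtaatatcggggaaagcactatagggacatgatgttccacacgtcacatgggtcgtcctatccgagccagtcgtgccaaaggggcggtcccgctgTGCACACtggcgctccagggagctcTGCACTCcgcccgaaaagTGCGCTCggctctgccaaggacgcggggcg
In Mt2 the capitals TGACTCAGC, at position -79 relative to the start, match both the antioxidant core and the AP-1 site. The Mt1 window has no match to either, and bases outside the windows were not searched.

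Upstream of these genes, the NRF2 transcript itself was not called. Nfe2l2 gave 0.43 ± 0.14 (SE) in experiment 3 over experiment 1 (limma adjusted p = 0.178), Keap1 -0.06 ± 0.09, and Bach1, the repressor that competes with NRF2 at Hmox1, 0.36 ± 0.14. Of the 10 measured regulators and partners 3 rose and 0 fell, beside 2.07% of all genes that rose and 1.07% that fell. Their median was 0.34, against -0.02 over all genes. Those that rose were the small MAF genes Maff (1.73 ± 0.18, limma adjusted p = 0.00949) and Mafk (1.11 ± 0.11), and Sqstm1 (1.17 ± 0.11). The Sqstm1 product p62 binds KEAP1, and Sqstm1 is itself an NRF2 target.

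In the wider antioxidant system most genes did not pass. Over 9 lists with 99 measured genes, the regulators included, 5 rose and 1 fell in experiment 3 over experiment 1, with a median of 0.035, beside 2.07% of all genes that rose and 1.07% that fell. In experiment 2 over experiment 1, 0 were called, with a median of 0.04, and 16 had an unadjusted p under 0.05, as did 9.4% of all genes. Outside the regulators the 2 that rose were Gsto1, an omega-class glutathione transferase and 1 of 16 measured transferases (0.83 ± 0.10, limma adjusted p = 0.0126), and Sesn2, a stress-induced sestrin and 1 of 11 in the thioredoxin list (0.87 ± 0.10, limma adjusted p = 0.0131). The 1 that fell, of 7 in NADPH supply, was H6pd, which makes NADPH inside the endoplasmic reticulum, with -0.63 ± 0.10 (SE, limma adjusted p = 0.0327). Idh1, another NADPH source, gave -0.50 ± 0.12 and did not pass.

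In glutathione synthesis and use 0 of 14 were called, and Slc3a2, the partner chain of the cystine exchanger, gave 0.59 ± 0.11 (SE, limma adjusted p = 0.0513). In quinone and xenobiotic handling 0 of 10 were called, and Ugdh, which makes the sugar donor for glucuronidation, gave 0.72 ± 0.14 (SE, limma adjusted p = 0.0596). Heme and iron handling (0 of 10) and superoxide and peroxide removal (0 of 4) had medians of -0.02 and -0.06. In zinc and copper handling 0 of 17 were called with a median of 0.005, Mtf1 gave 0.14 ± 0.10, and the zinc exporters Slc30a1 and Slc30a4 gave 0.51 ± 0.13 and 0.82 ± 0.16 (limma adjusted p = 0.101 and 0.0602).

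**Figure D5:**
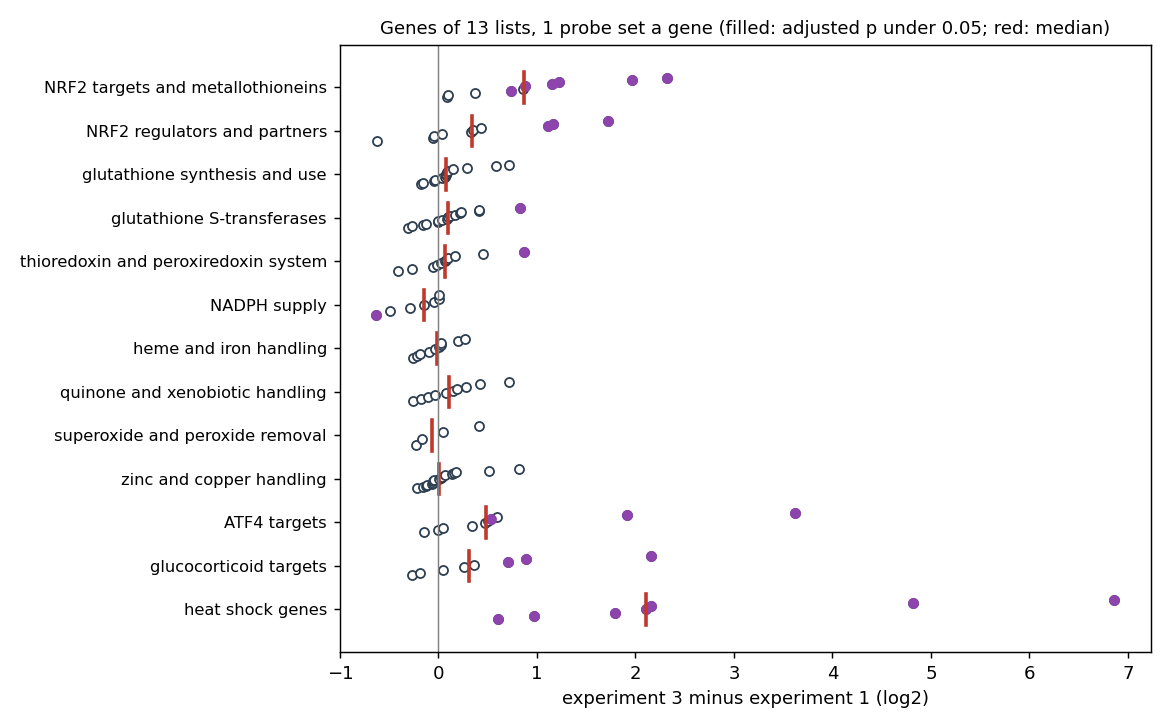
Experiment 3 minus experiment 1 (log2) for each measured gene of 13 lists, 1 probe set a gene. Each circle is a gene, filled where the adjusted p by limma is under 0.05, and the red bar is the list's median. The NRF2 targets and metallothioneins have a median of 0.87, the 9 lists of the wider antioxidant system have medians from -0.15 to 0.34, and the heat shock genes have a median of 2.11.

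Other stress genes rose in the same experiments. For the lists in this paragraph, the share over all genes that rose was 2.07% in experiment 3 over experiment 1. All 7 measured heat shock genes rose in experiment 3 over experiment 1, with a median of 2.11. In experiment 2 over experiment 1, 3 of the 7 rose, beside 0.616% of all genes. Of 10 genes of the ATF4 response 3 rose in experiment 3 over experiment 1, among them Atf3 (3.62 ± 0.13, limma adjusted p = 0.00029) and Ddit3 (1.91 ± 0.13, limma adjusted p = 0.00216), while Atf4 gave 0.50 ± 0.09 (SE, limma adjusted p = 0.0524) and Trib3 0.35 ± 0.21. Of 8 glucocorticoid targets 3 rose, among them Dusp1 (2.16 ± 0.10) and Sgk1 (0.89 ± 0.09), while Fkbp5, a standard glucocorticoid target, gave -0.19 ± 0.12 and did not pass. Among markers of other cell types, 1 of 7 endothelial and 1 of 5 neuronal ones rose, named here after their values were seen. They were Pecam1, by 0.56 at a mean level of 2.92, far below the median probe set, in a list with 3 negative differences and a median of 0.08, and Tubb3, by 2.00 at a mean level of 5.02, in a list with a median of 0.18. The part of these responses, of the Gapdh and Actb 3′ minus 5′ values and of the cell mixture in the differences of the 10 genes was not tested.

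Irradiation was not followed by calls in these lists either. Of the 99 genes of the antioxidant lists 0 were called for irradiated minus control and 2 had an unadjusted p under 0.05, beside 4.14% of all genes, with a median of -0.02. These 2 were Sod1, the cytosolic superoxide dismutase, with pair differences of -0.21, -0.20 and -0.16 in experiments 1, 2 and 3 (mean -0.19 ± 0.07, SE), and Sesn2, with -0.30, -0.09 and -0.29 (mean -0.23 ± 0.08, SE). Of the 99 genes, 16 had negative differences in all 3 pairs, beside 11.6% of all genes. Among the 16, those with the next smallest p were Me1, the cytosolic malic enzyme that supplies NADPH (-0.19 ± 0.08), and Prdx3, the mitochondrial peroxiredoxin (-0.16 ± 0.07). Nfe2l2 gave -0.07 ± 0.11, Keap1 -0.05 ± 0.08, Bach1 -0.02 ± 0.12 and Mtf1 -0.03 ± 0.08.

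The genes closest to Hmox1 in pattern, by root mean square difference of centred log2 levels over the 6 arrays, were Cdk5r1 (0.063), Mllt11 (0.078), Efnb2 (0.089), Sertad1 (0.091) and Zwint (0.099). None of them belongs to the lists used here. For Mt1 the closest were Ercc5, Creb3, Vim, Ptprn and Mt2, at 0.007 to 0.013. Since the bright Mt1 probe set hardly varies, closeness to it says only that a probe set was also nearly flat.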

How the data were processed

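Affymetrix array values from 6 cultures, 3 irradiated and 3 control, were analysed. The authors deposited log2 levels, 1 for each probe set on each array. RMA, limma and affy are named, without versions, per the submitters' processing notes. RMA brings all arrays to a common distribution, which hides any shift common to every transcript. A base of 2 was assumed for the logarithm, as is usual for RMA. Of 45101 probe sets, 64 Affymetrix controls were left out. Genes were named from the platform annotation.

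Tests were run with limma 3.58.1 in R 4.3.3 (lmFit and eBayes, experiment and irradiation as terms, two-sided, Benjamini-Hochberg adjusted over 45037 probe sets, threshold 0.05, no filter on level, 2 residual degrees of freedom), and the test was tried on simulated data. The number of arrays limits the precision. Paired arrays deviated together from their group means across probe sets (r = 0.63, 0.14 and 0.50 in experiments 1, 2 and 3), and the pairing comes from the series design.

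Named genes are the 10 members, 6 chosen regulators, and up to 2 genes per list with the smallest p for irradiated minus control and up to 2 for experiment 3 minus experiment 1. Not all of these are described. The members and lists were chosen with earlier results of these data known. Alternatives were no block, a random block, no irradiation term, quantile normalization, median centring, a level filter, an intensity trend, a robust prior, the mean of probe sets, and leaving out arrays or experiments. Promoter windows are RefSeq's, build GRCm38.p6.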

Additional observations from a re-analysis of the deposited data

How the results depend on the processing

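With no replicate block, 0 probe sets and 0 members were called for irradiated minus control, as in every other limma setting, so the block changed no call. The count of probe sets called for experiment 2 minus 1, 3 minus 1 and 3 minus 2 was 234, 1374 and 16. It was 374, 2513 and 64 at or above the median level, 670, 3534 and 275 with an intensity trend, 151, 750 and 33 genes with the mean of probe sets, and 52 for experiment 3 minus 2 with no irradiation term. Members called in experiment 2 minus 1 were 3, and 6 with an intensity trend. Leaving out 1 array or 1 experiment gave 0 probe sets and 0 members in each contrast that was left, with 1 residual degree of freedom. Differences of members from experiment 1 reversed in 0 alternatives, 8 of their alternative values passed where the reported one did not (5 for Osgin1 in experiment 2 minus 1, and with an intensity trend Gclm and Txnrd1 in that contrast and Slc7a11 in experiment 3 minus 1), and Gclm in experiment 3 minus 1 missed with a robust prior.

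Irradiated minus control turned sign without replicate 3 for Gclm (0.03, and -0.215 at the other end of the range over experiments left out), Gclc (0.13, -0.105), Srxn1 (0.14, -0.4), Txnrd1 (0.115, -0.145) and Slc7a11 (0.185, -0.32), and for Txnrd1 with the mean of probe sets (0.04). Experiment 3 minus 2, uncalled for every member, was 0 for Nqo1 with median centring, and turned sign for Gclm with the mean of probe sets (-0.02), and with 1 array left out for Nqo1 (range -0.2325 to 0.1925), Gclm (-0.1375 to 0.2475), Srxn1 (-0.44 to 0.46), Txnrd1 (-0.2025 to 0.2825), Slc7a11 (-0.0275 to 0.7775), Mt1 (-0.025 to 0.075) and Mt2 (-0.015 to 0.075). The cause of these changes in count and sign was not tested.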
